A study of Homo sapiens with 12 samples.

Results

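The transcripts described here are those of 10 genes for immune checkpoint ligands, molecules on or shed from a tumour cell that lymphocytes or macrophages read through their own receptors. They are CD274, PDCD1LG2, CD276, VTCN1, CD47, PVR, NECTIN2, LGALS9, TNFSF9 and NT5E. They were chosen by name, with earlier results of these data known. Each matched 1 row in both deposited tables, so they are 10 of 58302 genes. Their RNA was read in the human non-small-cell lung cancer lines H1299 and H1703, each grown as a culture of tumour cells and given SAHA or its DMSO vehicle for 24 h. SAHA (vorinostat) is a hydroxamate that blocks the zinc-dependent histone deacetylases. There were 12 libraries in 4 groups of 3, named H1299 DMSO, H1299 SAHA, H1703 DMSO and H1703 SAHA. The vehicle was 0.1% DMSO, and the protocol lists SAHA at 0, 2.5, 10 and 40 µM without saying which dose the sequenced cultures received. Each line is a single established line, and the labels do not say whether the 3 repeats of a group were cultured apart. The p-values therefore reflect only how these libraries vary, and part of that variation may be technical.

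Checkpoint ligands set how strongly an immune cell responds to a tumour cell. PD-L1 (CD274) and PD-L2 (PDCD1LG2) bind PD-1 on T cells and dampen their receptor signal, CD47 binds SIRPα on macrophages and blocks engulfment, and PVR and NECTIN2 are read by the inhibitory receptor TIGIT and by the activating receptor DNAM-1. NT5E encodes CD73, which makes the suppressive nucleoside adenosine from AMP, whereas TNFSF9 encodes 4-1BB ligand, a costimulator of T cells and thus a ligand with the opposite sign. Interferon-γ, signalling through the kinases JAK1 and JAK2, is the best known inducer of CD274, and the gene is also under epigenetic control in many tumours.

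The promoters of 4 members are shown because these genes carried the largest SAHA response in both lines (CD274, TNFSF9) or a response that differed between the lines (CD47, NT5E). The 250 bases before the annotated start were taken from RefSeq (GRCh38.p14) at chr9:5450292-5450541, plus strand, for CD274, chr19:6530776-6531025, plus strand, for TNFSF9, chr3:108091032-108091281, minus strand, for CD47, and chr6:85449833-85450082, plus strand, for NT5E. Capitals mark any match to the motifs named after the sequences.

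CD274: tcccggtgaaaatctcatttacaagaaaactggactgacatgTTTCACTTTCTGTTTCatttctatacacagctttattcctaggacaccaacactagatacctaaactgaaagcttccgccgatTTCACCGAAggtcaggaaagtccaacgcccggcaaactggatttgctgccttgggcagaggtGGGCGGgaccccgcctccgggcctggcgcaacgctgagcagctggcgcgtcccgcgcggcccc
TNFSF9: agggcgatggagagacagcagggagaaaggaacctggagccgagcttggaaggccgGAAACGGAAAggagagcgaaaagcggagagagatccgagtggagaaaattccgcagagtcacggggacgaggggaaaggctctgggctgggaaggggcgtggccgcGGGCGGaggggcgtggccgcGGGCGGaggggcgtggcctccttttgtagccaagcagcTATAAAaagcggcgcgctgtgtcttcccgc
CD47: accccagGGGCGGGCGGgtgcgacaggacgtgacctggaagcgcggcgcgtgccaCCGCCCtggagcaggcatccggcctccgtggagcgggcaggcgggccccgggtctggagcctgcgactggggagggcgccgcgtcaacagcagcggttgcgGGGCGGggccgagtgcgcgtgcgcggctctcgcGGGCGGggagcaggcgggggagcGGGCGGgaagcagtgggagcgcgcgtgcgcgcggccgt
NT5E: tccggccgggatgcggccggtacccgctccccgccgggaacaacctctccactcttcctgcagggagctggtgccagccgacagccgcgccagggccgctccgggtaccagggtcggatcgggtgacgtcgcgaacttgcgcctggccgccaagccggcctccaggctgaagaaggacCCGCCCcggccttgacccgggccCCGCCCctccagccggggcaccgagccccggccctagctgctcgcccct

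Capitals cover the core of an interferon response element (GAAA and GAAA with 2 bases between), the STAT core TTCNNNGAA, the AP-1 core TGANTCA, the GC box GGGCGG, the E-box CACGTG and the TATA box TATAAA, each searched on both strands. In CD274 the stretch starting at base -208 before the start holds 2 overlapping matches to the interferon element on the opposite strand, and a STAT core lies at -125. TNFSF9 has 1 interferon element match at -194, 2 GC boxes and a TATA box at -30. CD47 has 6 GC boxes, the first 2 overlapping, and NT5E has 2, both on the opposite strand. Of 35116 RefSeq promoter windows of 300 bases, 3.57% held the interferon element, 7.66% the STAT core, 7.71% the AP-1 core, 45% the GC box, 7.26% the E-box and 11.5% the TATA box. The windows of CD47 and NT5E were GC-rich, at 79% and 75%, against 57.3% in CD274, 63.3% in TNFSF9 and a median of 58.7% over all windows. A match here describes letters only, and no binding was measured.

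Libraries held 14.4M to 19.4M counts, and levels are given as CPM, counts scaled to library size with TMM factors. Mitochondrial genes took 1.96% to 2.22% of the counts in H1299 DMSO and 4% to 4.23% in H1299 SAHA, and 5.44% to 6.27% and 8.77% to 10.9% in the H1703 groups. The cells are labelled epithelial. Of 8 epithelial markers, 4 had 10 or more counts in each H1299 DMSO library and CDH1, the gene of E-cadherin, had none there, against 7 of 8 in H1703. All 5 mesenchymal markers reached 10 counts in each library of every group. Their summed level was 2960 to 3640 CPM in H1299 DMSO, against 593 to 616 CPM for the epithelial markers. In H1703 DMSO it was 1580 to 1660 CPM, against 3980 to 4440 CPM. No lymphoid marker out of 11 reached 10 counts in each library of either DMSO group. The summed level of the lymphoid markers was 0.604 to 1.18 CPM in H1299 DMSO and 10.9 to 12.2 CPM in H1299 SAHA, and 0.383 to 0.991 CPM and 21.5 to 22.3 CPM in H1703 DMSO and SAHA. The summed myeloid markers went from 25 to 46 CPM to 28.6 to 33 CPM in H1299, and from 30.4 to 50.3 CPM to 101 to 113 CPM in H1703. The summed fibroblast markers went from 1.54 to 2.54 CPM to 37.7 to 50.7 CPM in H1299, and from 62.9 to 72.3 CPM to 112 to 126 CPM in H1703. The summed endothelial markers went from 1.54 to 1.81 CPM to 15.7 to 20.1 CPM in H1299, and from 0.893 to 1.22 CPM to 7.72 to 9.98 CPM in H1703. The part of these marker genes and of the mitochondrial share in the results was not tested. In bulk RNA, fewer cells that express a gene and less RNA per cell cannot be told apart.

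SAHA changed 5 of the 8 members tested in H1299 and 7 of the 9 tested in H1703. In both lines TNFSF9, CD274, CD276 and NECTIN2 rose. CD47 rose in H1703, where NT5E rose slightly and PDCD1LG2 fell, while in H1299 NT5E fell. PVR did not pass the test in either line. The test compares 3 libraries with 3 for all genes, and a member is called where its p, adjusted over all genes tested, was below 0.05. In H1299 the 4 members called higher stand beside 33.3% of all genes called higher, and the 1 called lower beside 30.4%. In H1703 the 6 members called higher stand beside 34.7%, and the 1 called lower beside 32.6%. The median log2 difference over the tested members was 0.43 in H1299 and 0.93 in H1703, against 0.02 over all genes in each line. With a further requirement of a 2-fold change, 3 members were higher and 1 lower in H1299, where 30.4% of all genes passed, and 3 were higher and 0 lower in H1703, where 34.4% passed. Counted over both directions together, the share of members called was close to that of all genes in H1299 and somewhat above it in H1703. With the 2-fold requirement it was above that of all genes in H1299 and close to it in H1703. The share of members called higher was above the background share in both lines, and it rests on few genes. Because the members were chosen with earlier results of these data known, this excess is no test of the set.

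**Figure D1:**
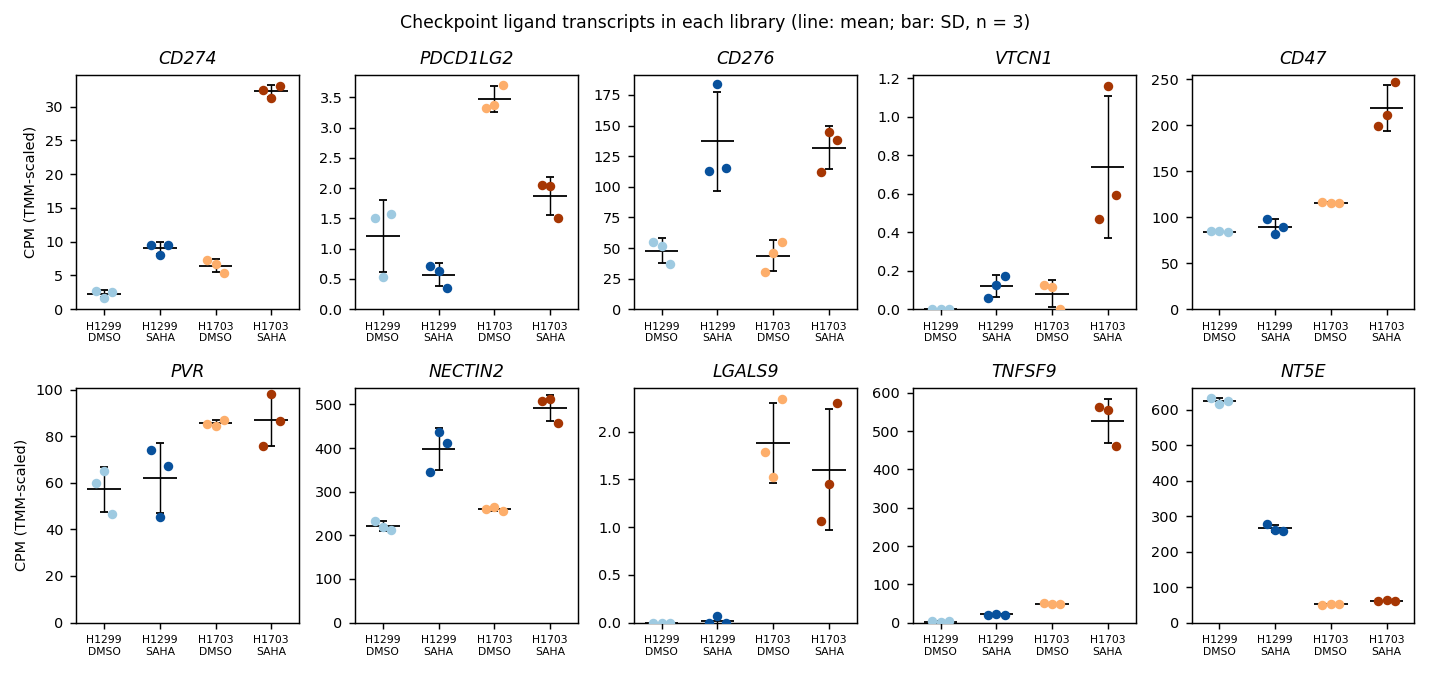
Level of each checkpoint ligand gene in TMM-scaled CPM (counts scaled to library size, linear axis from 0, own scale per gene) in the 4 groups; points are libraries, lines are means and bars SD over 3 libraries. CD274, CD276, NECTIN2 and TNFSF9 have every SAHA library above every DMSO library of the same line, and NT5E has every H1299 SAHA library below every H1299 DMSO library.

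CD274, the gene of PD-L1, lies at chr9:5450503-5470566 (GRCh38, ENSG00000120217). In H1299 it had 44, 29 and 46 counts with DMSO and 160, 126 and 163 with SAHA, which gave levels of 2.32 ± 0.530 CPM and 9.02 ± 0.894 CPM (SD, n = 3). In H1703 it had 114, 116 and 78 counts with DMSO and 489, 539 and 503 with SAHA, or 6.46 ± 0.990 CPM and 32.3 ± 0.895 CPM. The DMSO and SAHA libraries did not overlap in either line. The log2 difference was 1.90 ± 0.20 (SE) in H1299, a 3.73-fold rise (adjusted p = 4.06e-05), and 2.33 ± 0.13 in H1703, a 5.04-fold rise (adjusted p = 4.25e-07). CD274 started from unequal levels, since under DMSO it was 2.78-fold higher in H1703 than in H1299. All 4 groups were separate, in the order H1703 SAHA, H1299 SAHA, H1703 DMSO and H1299 DMSO.

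PDCD1LG2, the gene of PD-L2, starts 40 kb beyond the end of CD274 on the same chromosome (9:5510570-5571254, ENSG00000197646). Its counts were low in H1299, at 25, 9 and 28 with DMSO and 12, 10 and 6 with SAHA, or 1.21 ± 0.587 CPM and 0.567 ± 0.191 CPM. DMSO repeat 2 lay below 2 of the 3 SAHA libraries, so the groups overlapped, and the log2 difference of -1.14 ± 0.48 did not pass the test (adjusted p = 0.0609). Without H1299 DMSO repeat 2 it passed, with a log2 difference of -1.51 and an adjusted p of 0.00998. The adjusted p ran from 0.00998 to 0.18 over all settings tried. In H1703 PDCD1LG2 had 52, 58 and 54 counts with DMSO and 31, 35 and 23 with SAHA, or 3.47 ± 0.211 CPM and 1.87 ± 0.310 CPM, without overlap. It fell by 0.87 ± 0.22 on the log2 scale, 1.83-fold (adjusted p = 0.00563). The neighbouring PD-1 ligand genes thus differed in direction in H1703.

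On the per-length scale (FPKM), PDCD1LG2 was the higher of the pair in H1703 DMSO, at 1.39 ± 0.096 against 0.783 ± 0.11 for CD274, and the libraries did not overlap. With SAHA the order was the other way round, at 0.704 ± 0.12 FPKM for PDCD1LG2 and 3.68 ± 0.11 FPKM for CD274. FPKM sets one gene against another through the length used for each, here 7810 nt for CD274 and 2365 nt for PDCD1LG2. In counts CD274 was the higher in H1703 DMSO, at 308 against 164 summed over the group. The FPKM order there, and its change with SAHA, therefore depend on these lengths. In H1299 DMSO the libraries of the pair overlapped, at 0.555 ± 0.27 FPKM for PDCD1LG2 and 0.323 ± 0.077 FPKM for CD274. With SAHA CD274 was the higher in H1299 too, at 1.26 ± 0.13 FPKM against 0.264 ± 0.094 FPKM.

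The genes around this pair did not move as one. Within 500 kb of the start of CD274, JAK2, the kinase that carries interferon-γ signals, fell by 0.97 ± 0.11 on the log2 scale in H1299 (adjusted p = 4.96e-05) and by 1.64 ± 0.11 in H1703 (adjusted p = 1.11e-06). PLGRKT, the plasminogen receptor gene next to CD274 on the lower side, rose by 0.85 ± 0.11 in H1299 and 0.38 ± 0.11 in H1703. RLN2, a relaxin gene, rose by 1.38 ± 0.41 and 0.96 ± 0.24. INSL4, also on the lower side, was tested in H1703 alone and fell there by 1.84 ± 0.12 (adjusted p = 7.95e-07). On the far side of PDCD1LG2, RIC1 rose by 0.54 ± 0.09 in H1703, its difference of 0.30 ± 0.16 in H1299 did not pass, and ERMP1 passed in neither line. Farther out, KIAA2026 fell by 1.32 ± 0.35 in H1299 (adjusted p = 0.0142), and its H1703 difference of -0.60 ± 0.36 did not pass.

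**Figure D2:**
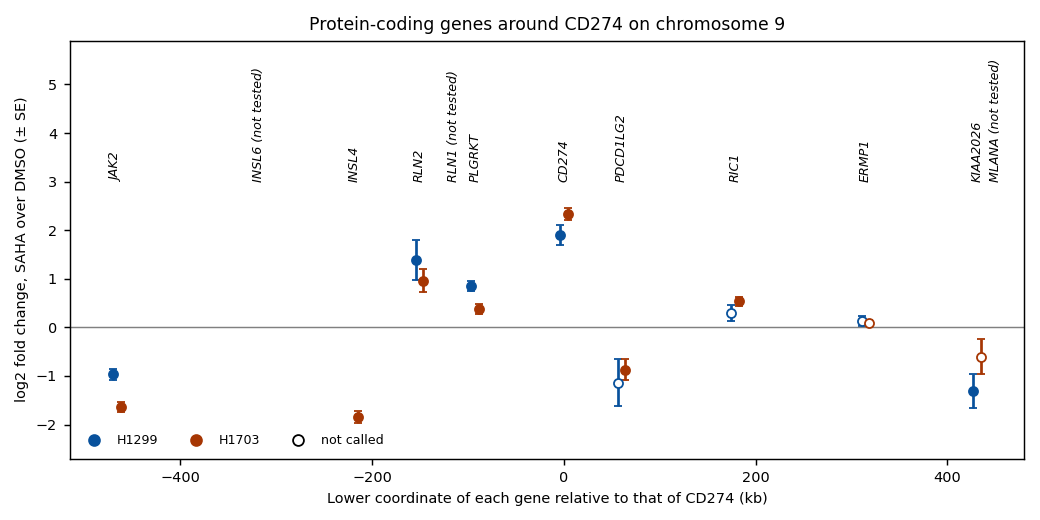
SAHA response of the protein-coding genes within 500 kb of the start of CD274 (y axis: log2 fold change of SAHA over DMSO ± SE; x axis: distance in kb between the lower coordinates; H1299 points drawn slightly left and H1703 points slightly right of the gene's place; open points were not called). CD274 at 1.90 and 2.33 lies between PLGRKT, which also rose, and PDCD1LG2 at -1.14 and -0.87, while JAK2 fell in both lines; INSL4 was tested in H1703 alone.

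CD276 (B7-H3, ENSG00000103855, chr15:73683966-73714518) is a B7 family member carried by many solid tumours, with a receptor that is not settled. It rose to similar levels in both lines. H1299 had 55.2, 52.0 and 36.6 CPM with DMSO and 113, 184 and 115 CPM with SAHA, and H1703 had 30.2, 46.0 and 54.8 CPM with DMSO and 112, 145 and 138 CPM with SAHA. The lowest SAHA library of each line was above the highest DMSO library, though the spread within groups was wide. The log2 difference was 1.47 ± 0.25 in H1299, 2.76-fold (adjusted p = 0.00224), and 1.61 ± 0.23 in H1703, 3.05-fold (adjusted p = 9.19e-04).

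VTCN1 (B7-H4, ENSG00000134258, chr1:117143587-117210960), another inhibitory B7 family member, was close to absent. None of the 3 H1299 DMSO libraries had a count, and the SAHA libraries had 1, 2 and 3. This is 2.06-fold higher when the DMSO group is set to 3 counts over the group and the SAHA counts are taken as exact. In H1703 it had 2, 2 and 0 counts with DMSO and 7, 20 and 9 with SAHA, or 0.0814 ± 0.0707 CPM and 0.739 ± 0.370 CPM. The low-count filter left it out of the tests in both lines. With no filter the H1703 difference was 3.03 on the log2 scale (adjusted p = 0.0018) and that in H1299 was 4.08 (adjusted p = 0.0868), the latter a fitted value against a group at 0 and so no bound.

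CD47 (ENSG00000196776, chr3:108043298-108091025) separated the lines. In H1299 it was at 84.8, 85.0 and 83.5 CPM with DMSO and 98.1, 81.3 and 89.5 CPM with SAHA, so the DMSO values lay within the SAHA range. In H1703 it was at 117, 116 and 116 CPM with DMSO and 199, 211 and 247 CPM with SAHA, with no overlap. The log2 difference was 0.03 ± 0.09 in H1299 (adjusted p = 0.771) and 0.93 ± 0.09 in H1703, 1.91-fold (adjusted p = 1.34e-05).

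The nectin ligands PVR and NECTIN2 lie 182.6 kb apart on chromosome 19 and differed in response. NECTIN2 (CD112, ENSG00000130202, chr19:44846175-44889228) was at 233, 218 and 212 CPM in H1299 DMSO and 345, 437 and 411 CPM in H1299 SAHA. In H1703 it was at 260, 264 and 256 CPM with DMSO and 508, 512 and 457 CPM with SAHA. Its libraries did not overlap in either line, and it rose 1.73-fold in H1299 (log2 0.79 ± 0.10, adjusted p = 1.16e-04) and 1.92-fold in H1703 (log2 0.94 ± 0.07, adjusted p = 2.77e-06). PVR (CD155, ENSG00000073008, chr19:44643798-44663583) was at 59.8, 65.2 and 46.5 CPM in H1299 DMSO and 74.0, 45.2 and 67.4 CPM in H1299 SAHA. In H1703 it was at 85.5, 84.4 and 87.0 CPM with DMSO and 75.8, 98.2 and 86.6 CPM with SAHA. The groups overlapped in both lines, with log2 differences of 0.07 ± 0.20 (adjusted p = 0.786) and 0.04 ± 0.10 (adjusted p = 0.746). PVR overlaps CEACAM19, at 14 to 36 counts per library in H1299 and 115 to 149 in H1703, and an antisense gene at 8 to 39 counts, and the labels do not settle whether reads were counted by strand.

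LGALS9 (galectin-9, ENSG00000168961, chr17:27629798-27649560), a ligand of TIM-3, was a transcript of H1703. In H1299 no DMSO library had a count (0 of 3), and 1 SAHA library had 1 count. H1703 had 28, 26 and 34 counts with DMSO and 16, 25 and 35 with SAHA, or 1.88 ± 0.418 CPM and 1.60 ± 0.631 CPM. Those H1703 groups overlapped and the log2 difference of -0.20 ± 0.34 did not pass (adjusted p = 0.611). The value is uncertain, since the near-identical copies LGALS9B and LGALS9C can share its reads. Those copies fell in H1703, by 2.24 ± 0.55 (adjusted p = 0.00583) and 1.48 ± 0.39 (adjusted p = 0.00736) on the log2 scale, from 111 to 23 and from 63 to 22 counts summed over the group.

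TNFSF9 (4-1BB ligand, ENSG00000125657, chr19:6530999-6535928) had the largest rise of the members tested in both lines. In H1299 it had 53, 37 and 49 counts with DMSO and 352, 372 and 356 with SAHA, or 2.72 ± 0.510 CPM and 21.8 ± 1.55 CPM. In H1703 it had 813, 841 and 687 counts with DMSO and 8473, 9569 and 7019 with SAHA, or 49.3 ± 2.34 CPM and 527 ± 57.2 CPM. The groups were far apart in both lines, and TNFSF9 rose 7.71-fold in H1299 (log2 2.95 ± 0.16, adjusted p = 9.24e-07) and 10.8-fold in H1703 (log2 3.43 ± 0.10, adjusted p = 1.12e-08). The treated H1299 libraries still lay below the untreated H1703 libraries. Its receptor gene TNFRSF9 (4-1BB), known best from activated T cells, rose as well, by 2.82 ± 0.16 on the log2 scale in H1299 (3.25 to 23.9 CPM) and 2.01 ± 0.10 in H1703 (17.7 to 70.2 CPM). PTPRC, the pan-leukocyte gene of CD45, had 2 or 3 counts summed over each group. Other genes of the lymphoid marker list did rise. NCAM1 rose by 6.20 ± 0.42 in H1299 and 7.11 ± 0.37 in H1703, and CD8A by 4.44 ± 0.57 in H1703. These were the only lymphoid markers with enough counts to be tested within a line.

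NT5E (CD73, ENSG00000135318, chr6:85449584-85495791) was the member with the clearest line difference. H1299 had 632, 615 and 623 CPM with DMSO and 277, 260 and 258 CPM with SAHA. H1703 had 48.1, 53.2 and 51.6 CPM with DMSO and 60.7, 62.8 and 60.6 CPM with SAHA. Neither line's groups overlapped, but the directions were opposite: NT5E fell by 1.29 ± 0.08 on the log2 scale in H1299, 2.44-fold (adjusted p = 1.18e-06), and rose by 0.29 ± 0.08 in H1703, 1.22-fold (adjusted p = 0.0104). The small H1703 rise was lost when libraries were scaled by total counts alone (log2 0.18, adjusted p = 0.0683) and without H1703 DMSO repeat 1 (log2 0.23, adjusted p = 0.0636), with adjusted p from 0.00341 to 0.0683 over all settings tried. Treated H1299 kept a higher NT5E level than either H1703 group.

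**Figure D3:**
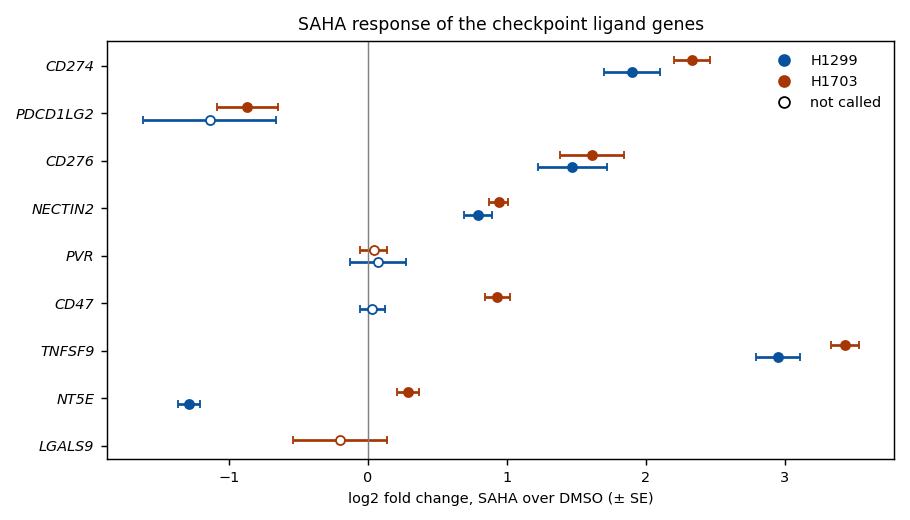
log2 fold change of SAHA over DMSO (± SE) for each checkpoint ligand gene tested, H1299 in blue and H1703 in red; open points were not called. TNFSF9 lies farthest to the right in both lines (2.95 and 3.43), CD47 (0.03 and 0.93) and NT5E (-1.29 and 0.29) lie apart between lines, and VTCN1 and, in H1299, LGALS9 were not tested.

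Whether the response itself differed between the lines was tested as the H1703 difference minus the H1299 difference, in a fit over all 12 libraries. Of 9 members tested, 2 passed, both with the higher value in H1703, and 0 passed in the other direction, beside 13.7% and 21.2% of all genes. CD47 differed by 0.83 ± 0.13 on the log2 scale (adjusted p = 1.79e-04) and NT5E by 1.50 ± 0.10 (adjusted p = 5.58e-08). NT5E alone exceeded 2-fold, as did 18.8% of all genes. The differences of CD274 (0.36 ± 0.24, adjusted p = 0.269), CD276 (0.07 ± 0.37, adjusted p = 0.92), NECTIN2 (0.08 ± 0.12, adjusted p = 0.692), PVR (-0.10 ± 0.24, adjusted p = 0.796) and PDCD1LG2 (0.20 ± 0.51, adjusted p = 0.814) did not pass, which does not show that these genes responded alike. TNFSF9 was near the threshold, at 0.41 ± 0.17 (adjusted p = 0.0786). It passed without H1299 DMSO repeat 2 (0.55, adjusted p = 0.0251) and without H1703 SAHA repeat 3 (0.50, adjusted p = 0.0298), as well as with 3 other scalings or tools, and its adjusted p ran from 0.0251 to 0.269. LGALS9 gave no usable value, because H1299 had 1 count in all. The median over the members was 0.20 against -0.09 over all genes.

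Before treatment most members were already higher in H1703. Under DMSO 7 of 9 members tested were called higher in H1703 and 1 lower, beside 34.3% and 32.2% of all genes, with a median log2 difference of 0.58 against 0.00. With the 2-fold requirement 4 were higher and 1 lower, where 37.4% of all genes passed. TNFSF9 was 18.1-fold higher in H1703 (log2 4.18 ± 0.13, adjusted p = 3.44e-12), PDCD1LG2 2.85-fold (1.51 ± 0.34, adjusted p = 0.00123) and CD274 2.78-fold (1.47 ± 0.18, adjusted p = 5.21e-06). LGALS9 was 31.7-fold higher, with H1299 set to 3 counts over the group and the H1703 counts taken as exact. CD47 was 1.38-fold (0.46 ± 0.09, adjusted p = 4.06e-04) and PVR 1.50-fold (0.58 ± 0.17, adjusted p = 0.00843) higher. NT5E was the exception, 12.2-fold lower in H1703 (log2 -3.61 ± 0.07, adjusted p = 8.46e-14). CD276 did not pass (-0.13 ± 0.26, adjusted p = 0.675). NECTIN2 was called 1.17-fold higher (0.23 ± 0.09, adjusted p = 0.0327), but the call was lost with the repeat number as a block (adjusted p = 0.0634) and in 9 other settings, among them leaving out H1299 DMSO repeat 2 or 3 or any H1703 DMSO repeat, with adjusted p from 0.00453 to 0.71. The PVR call was lost with scaling by total counts alone (0.39, adjusted p = 0.0545).

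Per length, the make-up of the ligand set differed between the groups. The lengths behind the deposited FPKM ran from 1665 nt for TNFSF9 to 14753 nt for CD276, and the order of the genes within a group depends on them. In H1299 DMSO NT5E led at 92.3 ± 2.2 FPKM, followed by NECTIN2 at 40.5 ± 2.1, PVR at 12.9 ± 2, CD47 at 7.25 ± 0.061, CD276 at 3.52 ± 0.71 and TNFSF9 at 1.77 ± 0.35 FPKM, each without overlap with the next. In H1703 DMSO NECTIN2 led at 41.5 ± 0.33 FPKM, and TNFSF9 at 28.1 ± 1.2 came next, above PVR at 16.9 ± 0.41 FPKM. SAHA put NECTIN2 first in H1299, at 73.4 ± 7.7 FPKM above NT5E at 39.7 ± 2.5, and TNFSF9 first in H1703, at 282 ± 32 FPKM above NECTIN2 at 74.1 ± 5. In treated H1299 TNFSF9 (14.3 ± 1.1 FPKM), PVR (14.2 ± 3.6) and CD276 (10.2 ± 3) overlapped in that order with their neighbours. Of the 30 pairs of neighbouring groups over all 10 members, 19 did not overlap in CPM and 15 in FPKM, and 9 members had the same order of groups on both scales. The overlap was not counted over all genes, so these counts describe the members only and cannot show whether they stand apart.

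The 115 other genes of these pathways moved in both directions. In H1299, 41 of 80 tested were called higher and 20 lower, and in H1703, 44 of 89 higher and 26 lower, with medians of 0.31 and 0.36 on the log2 scale, against 0.02 over all genes in each line. Over all genes 33.3% were called higher and 30.4% lower in H1299, and 34.7% and 32.6% in H1703, and every list count in the paragraphs that follow stands beside these shares. In 16 of the 92 tested over both lines the response was higher in H1703, and in 26 it was lower, beside 13.7% and 21.2% of all genes. The median of that difference was -0.21, against -0.09 over all genes.

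The list nearest to PVR and NECTIN2 holds the other nectins and nectin-like adhesion genes, and AFDN, the gene of a nectin-binding protein. It was called higher in 6 of 6 tested in H1299, beside 33.3% of all genes, and in 7 of 8 in H1703, beside 34.7%. None was lower in either line, and the medians were 1.87 and 1.52. These counts include AFDN, which rose by 0.46 ± 0.10 and 0.52 ± 0.12. CADM4 rose by 2.66 ± 0.13 (14.4 to 94.8 CPM) in H1299 and 3.08 ± 0.09 (22.2 to 186 CPM) in H1703. NECTIN1 rose by 2.30 ± 0.16 and 0.98 ± 0.09. CADM3 went from 20 to 2510 counts summed over the group in H1703, a log2 rise of 6.96 ± 0.15. NECTIN3 in H1703 did not pass (-0.03 ± 0.12).

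Among the other B7 and butyrophilin genes, relatives of CD274 and CD276, 3 of 9 were called higher and 3 lower in H1299, where all genes gave 33.3% and 30.4%, and 6 of 10 higher and 1 lower in H1703, where they gave 34.7% and 32.6%. VSIR, the gene of the checkpoint protein VISTA, rose by 5.68 ± 0.23 in H1299, from 37 to 1930 summed counts, and by 1.83 ± 0.09 in H1703, from 2618 to 9191. NCR3LG1 (B7-H6, a ligand that activates natural killer cells) fell by 1.67 ± 0.11 in H1299 and was at 0.00 ± 0.12 in H1703. BTN2A1 fell in both lines, by 1.33 ± 0.10 and 0.96 ± 0.11. CD80 and CD86, the CD28 ligands of antigen-presenting cells, had at most 15 counts summed over any group. In the TNF superfamily list 2 of 4 were called higher in H1299 (all genes 33.3%) and 4 of 5 in H1703 (all genes 34.7%). CD40 rose in both lines, by 1.61 ± 0.16 and 1.43 ± 0.10, and CD70, the next gene above TNFSF9 on chromosome 19, rose by 1.41 ± 0.09 in H1703 but not in H1299 (-0.33 ± 0.15, adjusted p = 0.0728).

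Most receptors of the members were at or near 0 counts. PDCD1, the gene of PD-1, and CTLA4 had 0 counts in all 12 libraries, and 3 of 11 receptor genes were tested in each line. Besides TNFRSF9, SIRPA, the receptor of CD47, rose by 2.30 ± 0.29 in H1299 (0.776 to 4.03 CPM) and fell by 1.85 ± 0.08 in H1703 (89.2 to 24.5 CPM). CD47 and SIRPA therefore went in different directions in H1703. Other partners of CD47 and phagocytosis signals were called higher in 5 of 8 and lower in 1 in H1299 (all genes 33.3% and 30.4%), and higher in 5 of 9 and lower in 4 in H1703 (all genes 34.7% and 32.6%). THBS1, a secreted CD47 ligand, rose by 2.28 ± 0.11 in H1299 and fell by 0.60 ± 0.09 in H1703. CD24, another signal that restrains macrophages, rose by 5.06 ± 0.31 in H1299, from 58 to 1945 summed counts, and fell by 0.85 ± 0.09 in H1703. QPCTL, the enzyme that modifies CD47 for SIRPα binding, rose by 0.72 ± 0.08 in H1703, and its H1299 difference of -0.17 ± 0.09 did not pass. CALR, the gene of the pro-phagocytic signal calreticulin, fell by 0.55 ± 0.12 in H1299 and rose by 0.75 ± 0.08 in H1703.

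The regulators of CD274 split. Of 15 genes of interferon-γ and NF-κB control, 6 were called higher and 5 lower in H1299 (all genes 33.3% and 30.4%) and 6 and 6 in H1703 (all genes 34.7% and 32.6%), with medians of 0.11 and -0.11. The receptor chain IFNGR1 rose by 1.19 ± 0.09 and 1.03 ± 0.07, and IRF1, a direct activator of CD274, by 0.38 ± 0.10 and 0.54 ± 0.08. NFKB1, with JAK2, fell in both lines, by 1.63 ± 0.11 and 1.12 ± 0.11. Of 11 genes that set PD-L1 protein stability, 5 were higher and 6 lower in H1299 and 5 higher and 4 lower in H1703. HIP1R, which sends PD-L1 to lysosomes, rose by 1.76 ± 0.09 and 1.39 ± 0.11. CMTM6, which protects PD-L1 at the membrane, fell by 0.33 ± 0.08 in H1299, and its H1703 difference of 0.19 ± 0.09 did not pass (adjusted p = 0.0972). Elsewhere in this list, SPOP fell by 0.97 ± 0.09 in H1299, and its H1703 difference of 0.11 ± 0.09 did not pass. ZDHHC3 rose by 0.40 ± 0.09 and 1.13 ± 0.08, and ZDHHC9 by 0.78 ± 0.10 and 0.93 ± 0.07. USP22 fell by 0.39 ± 0.08 and 0.63 ± 0.07. The net effect of the list on PD-L1 was not tested. PD-L1 protein was not measured.

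Of 17 genes of extracellular ATP and adenosine, the pathway of NT5E, 7 of 13 tested were called higher and 1 lower in H1299 (all genes 33.3% and 30.4%), and 6 of 15 higher and 5 lower in H1703 (all genes 34.7% and 32.6%). ENTPD2, an enzyme upstream of CD73 that degrades ATP, went from 2 to 535 summed counts in H1299, a ratio of 276 with a 95% counting interval of 76 to 2280, and rose by 4.19 ± 0.24 in H1703. CD38, which feeds an alternative route to adenosine, fell by 1.55 ± 0.11 in H1703 (63.9 to 21.5 CPM). In H1299 it rose by 2.58 ± 0.61 (adjusted p = 0.00467), from 6 to 38 summed counts. ADORA2B, an adenosine receptor, fell by 0.99 ± 0.10 in H1703. In H1299, where NT5E fell, ADORA2B fell by 0.40 ± 0.12, a call lost without H1299 DMSO repeat 3 (adjusted p = 0.055; range over settings 0.0113 to 0.055).

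The list of the other galectins, relatives of LGALS9, also holds LGALS3BP, the gene of a galectin-binding protein that is not itself a galectin. The list was called higher in 3 of 5 and lower in 1 in H1299 (all genes 33.3% and 30.4%). That 1 was LGALS3BP. In H1703 it was called higher in 1 of 7 and lower in 2 (all genes 34.7% and 32.6%), and LGALS3 rose there by 1.07 ± 0.08. Under DMSO the median of the list was 5.11 higher in H1703 on the log2 scale. It was 4.50 with the 2 genes at 0 counts in H1299 set to 3 counts over the group. This median includes LGALS3BP (5.62) and the near-identical LGALS9B (8.24) and LGALS9C (7.44), and it was not computed without them. Of the other inhibitory ligands, 2 of 6 were called higher and 3 lower in each line, beside the same shares of all genes. HLA-E, the ligand of NKG2A, rose by 1.00 ± 0.09 in H1703, and HMGB1 fell by 1.53 ± 0.20 in H1299 and 1.85 ± 0.26 in H1703. FGL1, a ligand of LAG-3, fell by 3.22 ± 0.26 in H1703 and had 0 counts in every H1299 library.

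**Figure D4:**
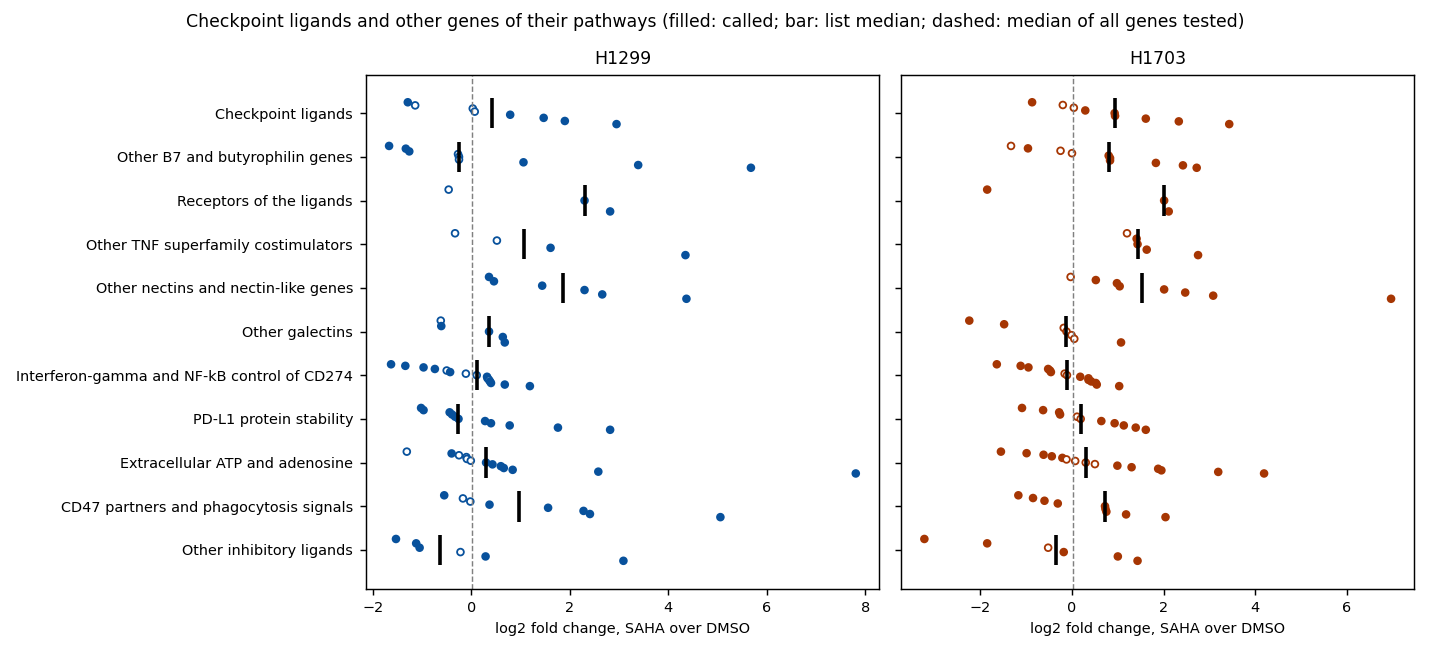
log2 fold change of SAHA over DMSO in H1299 (left) and H1703 (right) for the checkpoint ligand genes and 10 lists of other pathway genes; each point is a tested gene (filled: called), bars are list medians and the dashed line is the median of all genes (0.02). The nectin list has a median of 1.87 and 1.52 and no called gene below 0; the farthest right point of H1299 is the fitted value of ENTPD2, which had 2 counts with DMSO.

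By position, the protein-coding gene next to a member did not always share its direction. BCAM, an adhesion gene on the lower side of NECTIN2, rose by 2.98 ± 0.10 in H1299 and 2.19 ± 0.11 in H1703. TOMM40, nearer to NECTIN2 on the higher side, fell by 0.70 ± 0.07 in H1703, and its H1299 difference of -0.20 ± 0.10 did not pass. TUBB4A, a tubulin gene beside TNFSF9, rose by 3.13 ± 0.14 and 1.01 ± 0.08. NPTN, on the lower side of CD276, rose by 1.08 and 1.57. INSYN1, nearer on the higher side, rose by 3.85 ± 0.63 in H1299 and did not pass in H1703 (0.53 ± 0.34). BBX, on the lower side of CD47, fell by 1.50 and 1.13. IFT57, nearer on the higher side, did not pass in H1299 (-0.06 ± 0.11) and rose by 0.44 ± 0.09 in H1703, as CD47 did. TBX18, on the lower side of NT5E, fell by 1.38 ± 0.11 and 2.59 ± 0.12, so in H1703 it moved against NT5E. SNX14, much nearer on the higher side, also fell, by 0.63 ± 0.09 and 0.36 ± 0.10.

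By the pattern of the 4 group means of log2 CPM, compared over 13113 genes as the root mean square difference after centring, the genes most like CD274 were TNXB (0.111), SHC4 (0.129) and SRXN1 (0.151). Those most like TNFSF9 were RASAL1 (0.236), CHRNB2 (0.247) and FAM49A (0.376), a looser fit than for CD274, and those most like NT5E were FAR2 (0.103), NKX3-2 (0.171) and RP1 (0.177). CD47 was matched most closely by SLFN5 (0.026) and CD276 by MOSPD1 (0.046). With 4 group means per gene these are descriptions of shape only.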

How the data were processed

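The data are poly(A) RNA-seq of 12 libraries in 4 groups of 3. The authors deposited, per the file headers, 1 table per line with a raw count column and an FPKM column for each library. Columns headed NC were read as DMSO, the only group of a line besides SAHA. Each count is a raw whole number. An FPKM value in the deposited tables is that count over the column total and 1 length per gene, as checked within 1% in 100% of 180885 values. Tools listed in the submitters' processing notes, with no role stated, are HISAT2 2.1.0, StringTie 1.3.3b, fastp, FastQC 0.11.9 and edgeR 3.30.3, on build GRCh38. Which tool made the counts is not stated there. Per the labels, 1 passage names a directional kit and another an un-stranded library. The series states a median of 55M reads, and the count columns sum to 14.4M to 19.4M.

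The test was edgeR's quasi-likelihood test (version 4.0.16, R 4.3.3) with robust estimation, after TMM scaling and a filterByExpr filter of at least 10 counts and 15 in total. P-values were adjusted by Benjamini-Hochberg over every gene tested, and called below 0.05. Each line was fitted alone, and the interaction and the DMSO difference came from 1 fit over 12 libraries. Standard errors are the log2 fold change over the root of F. CPM levels use TMM over all 12 libraries. FPKM served for levels between genes. A group at 0 was set to 3 counts over the group, with the counts of the other group taken as exact. Folds found in this way are therefore not lower limits. Intervals and floors cover counting error only. DESeq2 1.42.0 was an alternative. On simulated data the fit recovered 96% of 2-fold and 100% of 4-fold changes in H1299 (17136 genes), and 99% and 100% in H1703 (17144 genes). That simulation gave every gene the same fixed spread and changed 200 genes, all drawn from well-counted ones. Far more genes were called in the real data. The rates therefore do not cover members with few counts, such as PDCD1LG2, VTCN1 and LGALS9, or with a wide spread, such as CD276.

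The labels' batch entry carries the repeat number, so same-numbered libraries were treated as paired in an alternative fit, and each repeat holds 1 library of each group. Deviations of same-numbered libraries from their group means correlated between -0.031 and 0.0333. Chi-square per degree of freedom between repeats ran from 10.9 to 24.7, so no library repeats another.

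The members and gene lists were chosen with earlier results of these data known. A rule named all members, their neighbours and the 3 genes most like each member. Per list and comparison it also named the 2 called genes with the smallest adjusted p (mean log2 CPM of 1 or more) and 1 of the opposite direction. Not every gene so named is described, and the rule did not decide which ones are. Among those left out are LRP1, QPCT, ILDR2, ENPP1, CD200, STAT3, COPS5, BST1 and ITGB3. CMTM6, CTLA4, PDCD1, CD80, CD86, LGALS9B, LGALS9C and genes near CD274 beyond its neighbours were added after their values were seen, as were values of a named gene in a comparison for which the rule did not name it. Promoters came from a RefSeq table (9 of 10 members matched).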

Additional observations from a re-analysis of the deposited data

Results flagged for a closer look

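The results named here are those where the test of the difference between lines passed, given as the H1703 log2 response to SAHA minus the H1299 response. Of the checkpoint ligands these were CD47, at 0.83, and NT5E, at 1.50. Of the other pathway genes named by the rule, the difference was above 0 for NCR3LG1 (1.59), CD70 (1.67), HIF1A (1.45), SPOP (1.00), ZDHHC3 (0.66), DPP4 (0.98), CALR (1.23) and HLA-E (0.64). It was below 0 for VSIR (-3.93), SIRPA (-4.22), TNFRSF9 (-0.89), TNFSF15 (-2.78), CADM1 (-3.40), NECTIN1 (-1.39), LGALSL (-0.89), JAK1 (-0.88), USP22 (-0.31), CD38 (-4.20), ENTPD2 (-3.68), THBS1 (-2.95) and CD24 (-5.98). LGALSL lost its call in 6 of the fits that left out 1 library, with adjusted p up to 0.0752, and USP22 lost its call with the repeat number as a block (-0.31, adjusted p = 0.0517) and in 2 other scalings, with adjusted p from 0.0027 to 0.0794. ENTPD2 had 2 counts in H1299 DMSO and CD38 had 6, so their fitted differences depend on few counts.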

How the results depend on the processing

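Over the settings tried, no called member and no named pathway gene that was called changed direction, while differences that were not called crossed 0 for CD47 in H1299 (-0.04 to 0.10), PVR in H1299 (-0.08 to 0.25) and H1703 (-0.07 to 0.12), LGALS9 in H1703 (-0.55 to 0.01), CD276 under DMSO (-0.33 to 0.07) and, in the difference between lines, PDCD1LG2 (-0.06 to 0.55), CD276 (-0.13 to 0.34), NECTIN2 (-0.02 to 0.16) and PVR (-0.29 to 0.04). The 2-fold requirement reduced the members called in H1703 to 3 higher and 0 lower, those with a different response to 1 higher, and those higher in H1703 under DMSO to 4. Members called lower in H1299 became 2, with PDCD1LG2, in the fit over 12 libraries (log2 -1.09, adjusted p = 0.031) and without H1299 DMSO repeat 2. Leaving out 1 library gave 1 to 2 members lower in H1299, 4 higher there, 5 to 6 higher in H1703, 2 to 3 with a response higher in H1703, and 6 to 7 higher in H1703 under DMSO. Of the member results, 511 kept their status as called or not called, 7 gained a call and 13 lost it. The 511 include results that were never called, such as PVR within each line. The cause of the changes was not tested. With the replicate block, which pairs the libraries by repeat number, 4 members were higher and 1 lower in H1299, 6 and 1 in H1703, 2 and 0 in the difference, and 6 and 1 between lines; beyond NECTIN2 and USP22 it changed no other call of a named gene. Over all genes the block gave 10616, 11322, 6015 and 12289 calls. Scaling by total counts alone shifted the median of all genes by -0.105 in H1703, -0.102 in the difference and -0.174 between lines. HLA-E in H1299 (0.29) lost its call without H1299 DMSO repeat 2 or 3 or H1299 SAHA repeat 2 or 3 (adjusted p up to 0.0849), and LGALS3BP in the fit over 12 libraries (adjusted p = 0.115). Depth limits PDCD1LG2, VTCN1 and LGALS9, with at most 58 counts in any library.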
